A study of Oryza sativa with 4 samples.

Results

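The 10 rice genes described here belong to gene families that make sucrose or carry it across membranes. They are the sucrose-phosphate synthase gene SPS1 (OS01G0919400), the sucrose-proton symporter genes SUT1 (OS03G0170900), SUT2 (OS12G0641400), SUT3 (OS10G0404500), SUT4 (OS02G0827200) and SUT5 (OS02G0576600), and the SWEET sugar facilitator genes SWEET11 (OS08G0535200), SWEET12 (OS03G0347500), SWEET13 (OS12G0476200) and SWEET14 (OS11G0508600). They were picked by locus identifier and not by a cut-off on their values, though earlier results of these data were known. All 10 were found among the 35667 rows of the deposited gene table. RNA-seq of flag leaf blades at their widest part was compared between the d1 mutant (allele d1-1) and the wild type (WT, cultivar TC65), with 2 libraries per genotype and 4 in all. The mutated gene is RGA1, which encodes the alpha subunit of the heterotrimeric G protein. All plants grew singly in pots in a greenhouse with 16 h of light, at about 30 °C by day and 25 °C by night. Their age is labelled as 2 months, whereas the growth description gives 100 days. The mutant is represented by 1 allele, and its parental line is not given in the labels.

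Sucrose is made in the cytosol of photosynthetic cells from triose phosphate that the chloroplast exports. Sucrose-phosphate synthase joins UDP-glucose and fructose 6-phosphate, and sucrose-phosphate phosphatase removes the phosphate. SWEET proteins let sugars pass through membranes down their gradient, and those of the clade that holds SWEET11 to SWEET14 carry sucrose out of cells into the cell wall space. SUT proteins then take sucrose up against its gradient together with protons, and phloem loading in many grasses uses this step. SWEET11, SWEET13 and SWEET14 are also known in rice as genes that the bacterial blight pathogen switches on during infection.

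Each genotype has 1 FPKM value per gene, which scales fragments to the length of the transcript and to the mapped fragments of the library, and in which the authors had combined both libraries. Because FPKM is per length, levels can be set side by side between genes, but the spread between the 2 libraries of a genotype is not known here and no SD can be given. The labels state about 40000000 reads of 150 bp per library, and the number of mapped fragments is not known here. A gene counted as called where q in the authors' deposited table was under 0.05, and 23672 rows had been tested there. The deposited q is smaller than a Benjamini-Hochberg adjustment of the deposited p-values over all tested rows. At the smallest deposited p the q was 0.000186, against 0.000882 when adjusted again. At the same limit of 0.05, 4569 rows were called by q and 3375 by the renewed adjustment. The FPKM columns of the genotypes do not add up to the same total. The log2 ratio of the sums, d1 over WT, was 0.27, while the median log2 ratio of all tested genes was -0.02. Setting the sums equal lowers every log2 ratio by 0.27 and takes that median to -0.29, and such values are given below as "with equal sums".

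In d1 leaves the synthesis gene SPS1 was higher, the facilitator genes SWEET13 and SWEET14 were lower, and no symporter gene passed the test. SPS1 was 1.46-fold higher, a call lost under stricter rules, SWEET13 1.65-fold lower and SWEET14 2.53-fold lower in d1. Of the 10 genes, 6 had been tested, and 3 of these were called, beside 19.3% of all tested genes. The 1 gene called higher stands beside 7.24% of tested genes called higher, and the 2 called lower stand beside 12.1% called lower. The median log2 ratio of the 6 tested genes was -0.11, against -0.02 over all tested genes (-0.38 and -0.29 with equal sums). At q under 0.01, 2 of the 6 tested genes were called beside 12.0% of all tested genes, and after a renewed Benjamini-Hochberg adjustment 2 beside 14.3%. Both times SPS1 was the gene lost, and SWEET13 and SWEET14 kept their calls. Asking for at least a 2-fold difference as well left 1 gene, beside 8.98% of tested genes. With 6 tested genes, these counts and medians describe the genes and single out nothing about the group. The remaining 4 genes, SUT3, SUT5, SWEET11 and SWEET12, had no test.

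**Figure D1:**
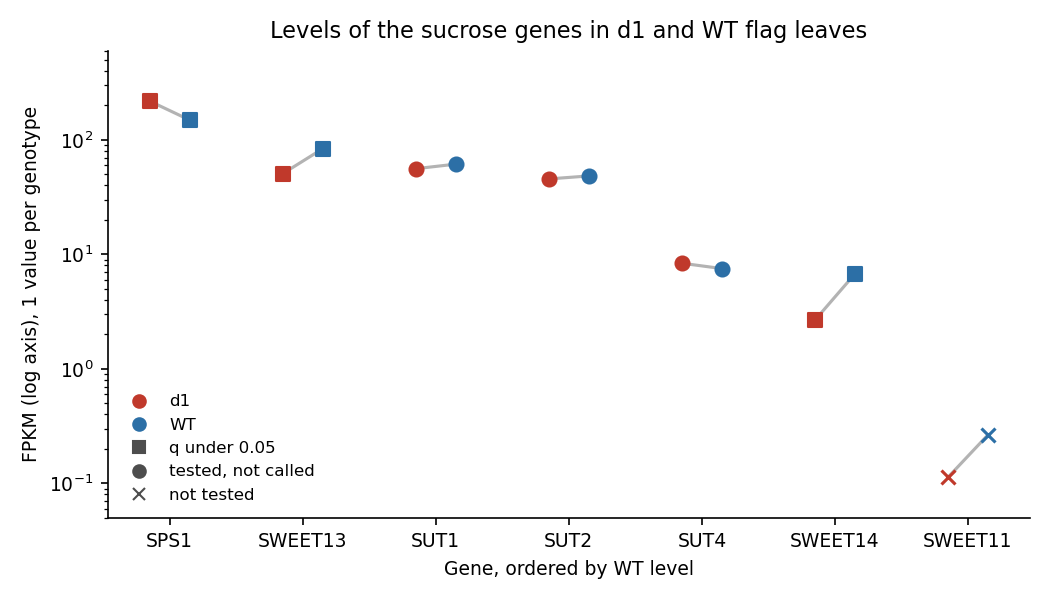
FPKM on a log axis for the 7 genes above 0, ordered by WT level, with d1 in red to the left of WT in blue and 1 value per genotype. Squares mark genes with q under 0.05, circles tested genes that were not called, and crosses the untested SWEET11. SUT3, SUT5 and SWEET12 were listed at 0 in both genotypes and are not drawn. SWEET13 stands below SUT1 in d1 and above it in WT.

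SPS1, for the enzyme that commits UDP-glucose and fructose 6-phosphate to sucrose, was the most abundant of the 10 transcripts. It was read at 217.9 FPKM in d1 and 149.0 FPKM in WT, above 97.2% of tested genes in d1 and 95.8% in WT. The log2 ratio of 0.55 passed the test in the authors' deposited table (p = 0.0123, q = 0.0295), and 88.5% of tested genes had a lower ratio. Among the 2368 tested genes with the highest mean FPKM, to which SPS1 belongs, 17.9% were called higher and 15.9% lower. With equal sums the log2 ratio was 0.28. The call was lost when p-values were adjusted again by the Benjamini-Hochberg method over all tested rows (adjusted p = 0.0752 from the p-values of the authors' deposited table), and it did not reach q under 0.01.

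As deposited, the 3 tested symporter genes differed by 1.06-fold to 1.11-fold between the genotypes, and SUT1 and SUT2 stood well above SUT4. SUT1, which encodes a plasma membrane symporter found in rice phloem, was read at 56.0 FPKM in d1 and 61.4 FPKM in WT. SUT2, whose protein lies in the vacuolar membrane and releases stored sucrose to the cytosol, was read at 45.6 FPKM in d1 and 48.4 FPKM in WT. SUT4 was lower in level, at 8.37 FPKM in d1 and 7.51 FPKM in WT. None of the 3 had an unadjusted p under 0.05, and all missed the threshold in the authors' deposited table, with log2 ratios of -0.13 (q = 0.639), -0.09 (q = 0.760) and 0.15 (q = 0.585) for SUT1, SUT2 and SUT4. With equal sums the log2 ratios were -0.40 for SUT1, -0.36 for SUT2 and -0.12 for SUT4, so the sign of SUT4 depends on the scale. On that scale the values of SUT1 and SUT2 were larger in size than the 0.28 of SPS1. No interval can be given for these differences, so a change that these libraries could not resolve is not shown to be absent.

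SUT1 and SUT2 made up most of the symporter signal in both genotypes. SUT1 contributed 50.9% of the summed FPKM of the 5 symporter genes in d1 and 52.3% in WT, and SUT2 contributed 41.5% in d1 and 41.3% in WT. SUT4 gave the remaining 7.61% in d1 and 6.41% in WT. SUT3, known in rice for its expression in pollen, and SUT5 were listed at 0 in both genotypes. The ratio of SUT1 to SUT2 was 1.23 in d1 and 1.27 in WT.

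SWEET13, the main facilitator gene of the 4 in these leaves, fell in d1. It was read at 50.7 FPKM in d1 and 83.7 FPKM in WT, a log2 ratio of -0.72 that passed the test in the authors' deposited table (p = 0.0002, q = 0.000687). Its ratio was higher than that of 14.8% of tested genes, and it belongs to the same 2368 most abundant genes as SPS1. With equal sums its log2 ratio was -0.99.

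SWEET14, at a lower level, fell by a larger factor. It was read at 2.66 FPKM in d1 and 6.74 FPKM in WT, with a log2 ratio of -1.34 (p = 0.0001, q = 0.000359 in the authors' deposited table). Of all tested genes, 6.47% had a lower ratio. Among the 2367 tested genes of its level, with a mean of 2.92 to 4.90 FPKM, 12.5% were called lower and 6.17% higher. With equal sums the log2 ratio was -1.61, and with 1 FPKM added to both genotypes it was -1.08. Both SWEET calls remained after the renewed Benjamini-Hochberg adjustment of the p-values in the authors' deposited table, with adjusted p = 0.00291 for SWEET13 and 0.00162 for SWEET14.

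SWEET11, which in rice serves pollen and grain filling, was barely read, at 0.113 FPKM in d1 and 0.265 FPKM in WT, and had no test. SWEET12 was listed at 0 in both genotypes, as were 16.5% of all rows of the table. SWEET13 made up 94.8% of the summed FPKM of the 4 facilitator genes in d1 and 92.3% in WT, and SWEET14 made up 4.98% in d1 and 7.43% in WT. The sum of the 4 was 53.5 FPKM in d1 and 90.7 FPKM in WT, whereas the sum of the 5 symporter genes was 109.9 FPKM in d1 and 117.3 FPKM in WT.

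**Figure D2:**
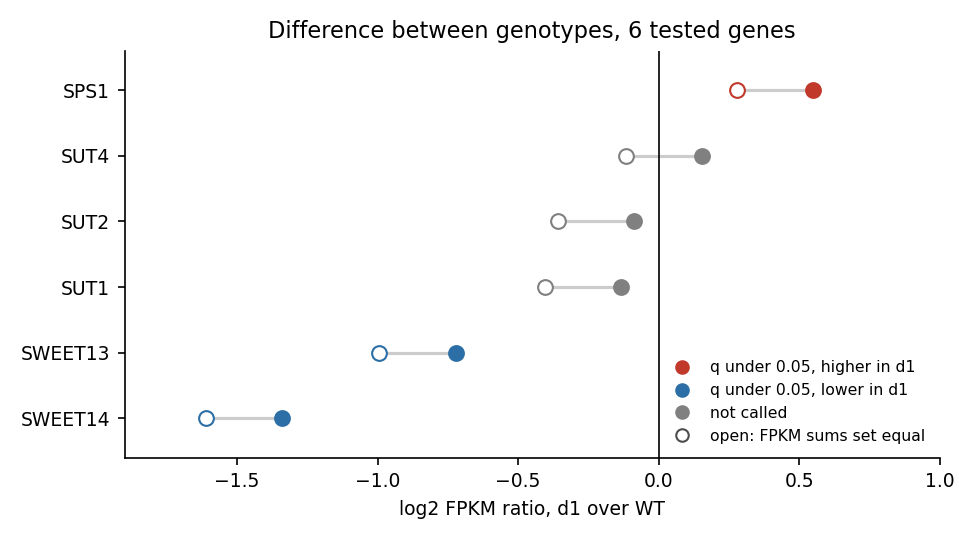
Log2 FPKM ratio of d1 over WT for the 6 tested genes. Filled points use FPKM as deposited, red for genes called higher in d1, blue for genes called lower and grey for genes not called, and open points show the same ratios with both FPKM sums set equal. SPS1 lies at 0.55 and SWEET13 and SWEET14 lie at -0.72 and -1.34, on the same side of 0 on both scales, whereas SUT4 changes side.

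The order of levels differed at 1 place. In d1 it ran SPS1, SUT1, SWEET13, SUT2, SUT4, SWEET14 and SWEET11, whereas in WT SWEET13 stood above SUT1. Without values per library, it cannot be said which neighbours in this order differ beyond their spread. Ratios between genes of the same genotype do not depend on how d1 and WT were scaled against each other. SWEET13 to SUT1 was 0.905 in d1 and 1.36 in WT, and the summed facilitator genes to the summed symporter genes was 0.486 in d1 and 0.773 in WT. SPS1 to SWEET13 was 4.30 in d1 and 1.78 in WT, a 2.41-fold difference. SPS1 to SUT1 was 3.89 in d1 and 2.43 in WT. These ratios were not tested. Without the spread between libraries, they do not show that the genes changed unequally, nor which gene stayed level.

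**Figure D3:**
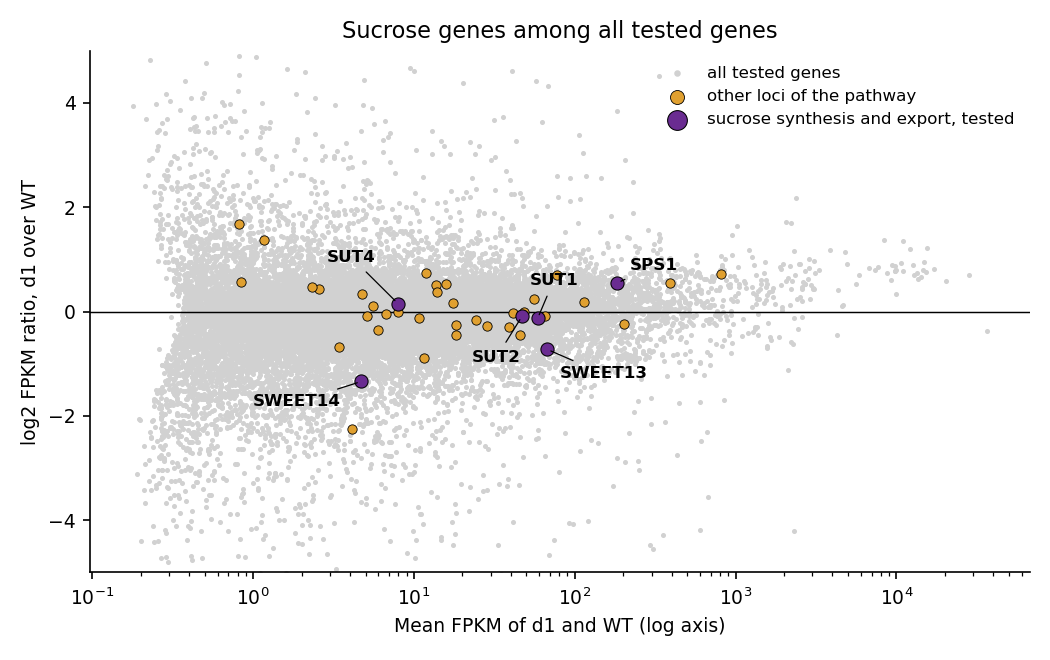
Log2 FPKM ratio of d1 over WT against the mean FPKM of both genotypes (log axis) for all tested genes in grey, the tested loci of the pathway in orange and the 6 tested sucrose synthesis and export genes in purple. The 142 tested rows at 0 in 1 genotype are not drawn, and 43 lie more than 5 log2 units from 0, beyond the axis. SPS1 lies above 88.5% of tested genes in its ratio, SWEET13 above 14.8% and SWEET14 above 6.47%, and the 3 SUT genes lie near 0.

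The other genes of sucrose metabolism were taken from lists of 43 loci whose identifiers came from general knowledge. Of these loci, 34 had been tested, on 35 rows because 1 identifier has 2 rows, and 7 rows were called higher and 3 lower, beside 7.24% and 12.1% of all tested genes. After the renewed adjustment 7 of these 10 calls remained, and those lost were SPS2, cFBP1 and a row of SPP1. Their median log2 ratio was -0.01 (-0.28 with equal sums), close to that of all tested genes. Among the steps before sucrose-phosphate synthase, 2 of 5 loci rose, TPT and cFBP1, beside 7.24% of all tested genes. Both, and SWEET1a of the 7 rows called higher, are among the 2368 tested genes with the highest mean FPKM. Of those genes, 17.9% were called higher and 15.9% lower. TPT, the triose phosphate translocator of the chloroplast envelope, was read at 1008 FPKM in d1 and 613.6 FPKM in WT (log2 ratio 0.72, q = 0.0106 in the authors' deposited table). The cytosolic fructose-1,6-bisphosphatase gene cFBP1, whose enzyme feeds fructose 6-phosphate into the pathway, was read at 468.3 FPKM in d1 and 318.4 FPKM in WT (log2 ratio 0.56, q = 0.0202 in the authors' deposited table). The locus entered as a UDP-glucose pyrophosphorylase with the higher level, OS09G0553200, was read at 185.4 FPKM in d1 and 219.8 FPKM in WT and did not pass.

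Within the sucrose-phosphate synthase family SPS1 was the most abundant locus in both genotypes. Summed over the 5 loci, the family was read at 402.4 FPKM in d1 and 314.9 FPKM in WT, of which SPS1 made up 54.2% in d1 and 47.3% in WT. SPS2 rose as well, to 18.8 FPKM in d1, against 13.0 FPKM in WT (log2 ratio 0.53, q = 0.0256 in the authors' deposited table). The next most abundant locus, OS11G0236100, was read at 121.8 FPKM in d1 and 106.9 FPKM in WT and did not pass. Neither SPS call remained after the renewed adjustment.

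Of the 4 tested rows of sucrose-phosphate phosphatase, the enzyme of the last step of synthesis, 1 was called higher and 1 lower, beside 7.24% and 12.1% of all tested genes. The most abundant, SPP2, was read at 60.8 FPKM in d1 and 51.3 FPKM in WT and did not pass. The locus OS05G0144900 rose 2.60-fold at a low level, to 1.68 FPKM in d1, against 0.647 FPKM in WT (q = 0.00161 in the authors' deposited table). The locus SPP1 (OS01G0376700) has 2 rows. On 1 row it fell to 15.3 FPKM in d1, against 21.0 FPKM in WT (q = 0.0483 in the authors' deposited table), a call lost after the renewed adjustment (adjusted p = 0.112 from the p-values of the authors' deposited table). On the other it was read at 23.0 FPKM in d1 and 25.8 FPKM in WT without passing.

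Among genes of sucrose breakdown and storage, 3 loci were called, and all tested genes had 7.24% called higher and 12.1% lower. Sucrose synthase, which splits sucrose with UDP, is coded by 6 of the listed loci, of which 4 were tested and 1 fell. That locus, SUS1, was read at 1.42 FPKM in d1 and 6.78 FPKM in WT, a log2 ratio of -2.25 (q = 0.000687 in the authors' deposited table). The most abundant sucrose synthase locus, SUS2, was read at 38.9 FPKM in d1 and 52.9 FPKM in WT and did not pass. Of the 4 tested loci entered as invertases, which split sucrose into glucose and fructose, 1 rose and 1 fell, both entered as vacuolar forms. OS04G0535600 was read at 14.8 FPKM in d1 and 8.84 FPKM in WT (q = 0.00190 in the authors' deposited table), and OS02G0106100 at 8.10 FPKM in d1 and 15.01 FPKM in WT (q = 0.00790 in the authors' deposited table). The cell wall invertase gene CIN1 was read at 35.0 FPKM in d1 and 43.1 FPKM in WT and did not pass. Neither of the 2 loci entered as tonoplast sugar transporters was called, and the more abundant one, OS10G0539900, was read at 15.7 FPKM in d1 and 12.1 FPKM in WT.

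Of 17 further SWEET loci, 12 were tested, 2 were called higher and 0 lower in the authors' deposited table, made in the layout of Cuffdiff, beside 7.24% and 12.1% of all tested genes. At an unadjusted p under 0.05 in the authors' deposited table there were 3 higher and 0 lower of the 12. Over all 23672 tested rows there were 2340 higher and 3534 lower at that limit. SWEET1a was read at 96.3 FPKM in d1 and 59.3 FPKM in WT (log2 ratio 0.70, q = 0.000359 in the authors' deposited table). SWEET15, of the same clade as SWEET11 to SWEET14, was read at 1.24 FPKM in d1 and 0.385 FPKM in WT (log2 ratio 1.69, q = 0.0131 in the authors' deposited table). SWEET4, the most abundant of those not called, was read at 63.1 FPKM in d1 and 66.9 FPKM in WT. Over all 21 SWEET loci the summed level was 347.3 FPKM in d1 and 354.0 FPKM in WT.

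**Figure D4:**
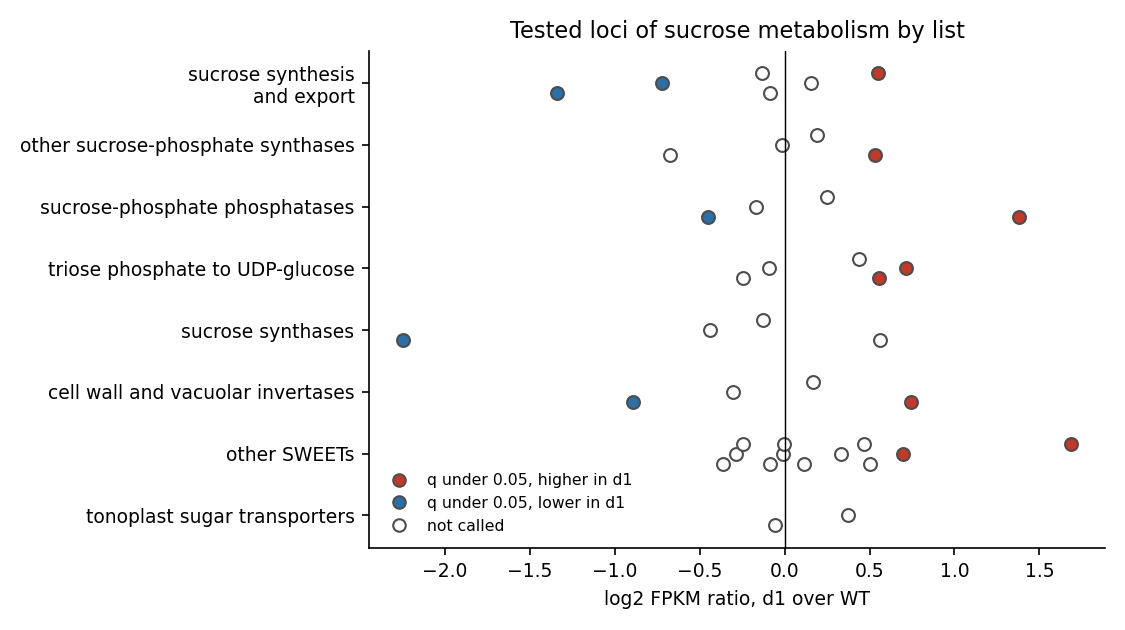
Log2 FPKM ratio of d1 over WT for the tested rows of the 10 genes (top row) and of each list of the pathway, 1 point per row and with vertical offsets only to separate points. Red points had q under 0.05 and were higher in d1, blue points were lower and white points were not called. The phosphatase and invertase lists have 1 called point on each side of 0, and the 2 called points of the other SWEET loci lie above 0.

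The labels of tissue and genotype were set against marker loci. RGA1 was read at 17.3 FPKM in d1 and 20.7 FPKM in WT (q = 0.296 in the authors' deposited table), and a level over the whole locus does not show the lesion. The 4 loci entered as rubisco small subunits, which mark leaf mesophyll, ranged from 3192 to 35243 FPKM in d1 and from 1430 to 21644 FPKM in WT. Of these 4, 2 were called higher, beside 7.24% of all tested genes. All 4 are among the 2368 tested genes with the highest mean FPKM, of which 17.9% were called higher. Their summed level was 57514 FPKM in d1 and 31007 FPKM in WT. Most of that sum came from the 2 loci that were not called. These were OS12G0291100, at 35243 FPKM in d1 and 21644 FPKM in WT (q = 0.256 in the authors' deposited table), and OS12G0274700. The latter was read at 15778 FPKM in d1 and 6176 FPKM in WT (q = 0.0801 in the authors' deposited table). The 3 secondary wall cellulose synthase genes CESA4, CESA7 and CESA9, which mark xylem and fibre cells, were all called lower, where 12.1% of all tested genes were, with a summed level of 4.17 FPKM in d1 and 12.95 FPKM in WT. After the renewed adjustment 1 of the 3 calls remained, that of CESA4, and 1 of the 2 rubisco calls. Of 2 endosperm storage protein loci, 1 was at 0 in both genotypes and the other at 0.261 FPKM in d1 and 0.226 FPKM in WT. The part of either marker list in the differences of SPS1, SWEET13 and SWEET14 was not tested. In whole leaf blades, fewer cells of a type and less RNA per cell cannot be told apart.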

How the data were processed

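The source is 1 table with the FPKM values of each genotype, deposited by the authors with a test statistic (a signed score), p-value and q-value per gene. FastQC, Trimmomatic, TopHat2, Cufflinks and Cuffdiff and the build IRGSP-1.0 are named, per the submitters' processing notes. Neither versions and parameters nor strand, nor how fragments matching several related genes were assigned, is stated in the labels, so values of close relatives such as SWEET13 and SWEET14 may share fragments.

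Log2 ratios (d1 over WT) were computed from the deposited FPKM with pandas 2.3.3, without a pseudocount unless stated. The Benjamini-Hochberg step was tested on simulated data. All 10 genes are named, with every called locus of the pathway lists and the most abundant uncalled locus of each list. Genes and lists were chosen with earlier results of these data known. RefSeq (assembly ASM3414082v1) has 8 of the 10 symbols, and 28 of 43 pathway symbols, on the chromosome of the identifier. It gives the symbol SPS1 to a gene on chromosome 6, and SUT3 was not matched. Pathway loci without a match are printed by identifier. No sequences or coordinates were used here.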

Additional observations from a re-analysis of the deposited data

How the results depend on the processing

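No paired analysis was possible because both libraries of a genotype share 1 column, and for the same reason no library was left out. SWEET13 and SWEET14 kept their direction and call at q under 0.01 and with the recomputed adjustment. SPS1 (log2 ratio 0.55) lost its call under both. Those checks per gene, and leaving out repeated identifiers, were chosen after seeing the data. With q under 0.01, 2 of the 10 genes, 5 pathway rows and 2832 genes in all were called. The recomputed adjustment left 2 of the 10 genes, 7 pathway rows and 3375 genes. A minimum change of 2-fold on top of the call left 1 of the 10 genes (SWEET14), 3 pathway rows and 2125 genes in all. With a minimum of 1 FPKM in either genotype the counts were 3, 10 and 4364, and without repeated identifiers 3, 9 and 4546. Equal FPKM sums turned SUT4 to a log2 ratio of -0.12, by the construction of that scale, and changed the sign of none of the other 5 tested genes. The median log2 ratio of those of the 10 genes that were tested was -0.38 with equal sums and -0.092 when centred on the median of all tested genes. Reads behind low values such as those of SWEET11 and SWEET14 are unknown.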

Other observations

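The loci next to SPS1, SWEET13 and SWEET14 by identifier were examined after the calls were seen. Of these 6 neighbours, 3 had been tested, those named below. In the authors' deposited table, made in the layout of Cuffdiff, 0 of the 3 were called, beside 19.3% of all tested genes. At an unadjusted p under 0.05 there were 0 as well. So few tested neighbours describe these loci only. The locus after SPS1, OS01G0919500, was read at 15.3 FPKM in d1 and 12.9 FPKM in WT (q = 0.397 in the authors' deposited table). The locus before SWEET14, OS11G0508301, was read at 2.42 FPKM in d1 and 2.43 FPKM in WT (q = 0.988 in the authors' deposited table). The locus after SWEET13, OS12G0477050, was read at 0.596 FPKM in d1 and 0.999 FPKM in WT (q = 0.240 in the authors' deposited table).

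Of the pathway loci, 9 had no test. Of these, 5 were listed at 0 in both genotypes, and none of the other 4 exceeded 0.0458 FPKM in either.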
